A study of Homo sapiens with 10 samples.

Results

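The expression of 10 genes of interleukin-4 receptor (IL4R) and JAK/STAT signalling was examined in human neuroblastoma cells carrying FOXP2 cDNAs of different primates. The members were chosen by gene symbol, from the receptor chains IL4R and IL13RA1, the Janus kinases JAK1, JAK2 and TYK2, the transcription factors STAT3 and STAT6, and the downstream genes PIM1, SOCS2 and SOCS3. They make up 10 of the 27992 gene symbols and 35 of the 80922 transcripts measured. IL4R, PIM1 and JAK1 met the criterion by which the study screened these libraries, with both hsaFOXP2 libraries outside all others. The study retained IL4R and PIM1 as reproduced targets. Such targets also had to appear on earlier lists of FOXP2 targets or song-related genes and pass its significance test. It lists JAK1 only as an interactor added to its network. Since all 3 members met the screening criterion, their level with hsaFOXP2 is a description and carries no test. The other 7 members are treated alike in that contrast.

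RNA-seq was done on cells of the human neuroblastoma line SH-SY5Y after stable transfection with linearized pcDNA3. The vector was empty (pcDNA3) or carried the isoform I cDNA of FOXP2, a forkhead transcription factor, from human (hsaFOXP2), chimpanzee (ptrFOXP2), Rhesus monkey (mmuFOXP2) or marmoset (cjaFOXP2). All 5 conditions, the empty vector included, went through transfection and selection with geneticin. Each has 2 libraries, A and B, from separate rounds of transfection. The p-values between conditions therefore measure the spread between such rounds in 1 cell line. Those for B against A measure how that difference varies between conditions. For hsaFOXP2 against non-human FOXP2, where the non-human cDNAs form 1 group, the spread also holds the differences among those cDNAs. Plasmids integrate at random in stable transfection, so the cDNA and the site and number of its insertions cannot be told apart. FOXP2 itself reached 1.54 and 0.93 BPKM with hsaFOXP2, 2.09 and 21.8 BPKM with ptrFOXP2, 30.2 and 3.91 BPKM with mmuFOXP2, and 14.5 and 18.3 BPKM with cjaFOXP2. It was at 0.0045 BPKM and listed at 0 in the pcDNA3 libraries. Both hsaFOXP2 libraries thus had less FOXP2 RNA than the 6 libraries with non-human FOXP2, and the part of this in the levels below was not tested. At the protein level, the study's densitometry of Western blots pointed to roughly the same amount of FOXP2 with human and non-human cDNAs. BPKM counts mapped bases per kb of a transcript's exons, scaled to the total of the library, so genes can be compared per length.

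Relative depth, estimated from the spacing of the lowest values, differed by up to 1.27-fold between libraries, and 20200 to 20794 genes per library were above 0 BPKM. The depth estimate is rough, since the most common spacing held for only 9.32% to 14.8% of the low transcripts compared. Of 10 markers of noradrenergic neuroblastoma, 9 had a mean of at least 1 BPKM, whereas TH, the rate-limiting enzyme of catecholamine synthesis, was at or near 0 in every library. Of 6 markers of lymphoid and myeloid cells, which carry IL4R in blood, only CD68 was above 0.17 BPKM in any library, at 7.28 to 22.4 BPKM. The 3 endothelial markers together stayed at or below 0.058 BPKM. The fibroblast markers summed to 75.9 to 239 BPKM, with 96.6 and 202 BPKM in the hsaFOXP2 libraries. COL1A2, also on that list, did not exceed 0.21 BPKM in any library. The part of the fibroblast markers in the results was not tested.

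IL4R binds interleukin-4 and pairs with the common gamma chain IL2RG on blood cells or with IL13RA1 on most other cells, where the pair also serves interleukin-13. Ligand binding brings together the kinases bound to the chains, JAK1 with JAK3, JAK2 or TYK2, which phosphorylate the receptor and above all STAT6. STAT3 is the main mediator of the interleukin-6 family, whose receptors share the chain IL6ST. PIM1, a serine/threonine kinase that favours survival, and the SOCS proteins, which bind receptors or kinases and dampen the signal, are classical STAT targets.

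The region around the transcription start is shown for IL4R and PIM1, since these were the members with the lowest ratio of hsaFOXP2 to non-human FOXP2. The sequences are from RefSeq on GRCh38.p14, run 5′ to 3′ along the gene, and carry CpG dinucleotides in capitals. IL4R lies on the plus strand at chr16:27313724-27314023 and PIM1 on the plus strand at chr6:37169902-37170201.
IL4R: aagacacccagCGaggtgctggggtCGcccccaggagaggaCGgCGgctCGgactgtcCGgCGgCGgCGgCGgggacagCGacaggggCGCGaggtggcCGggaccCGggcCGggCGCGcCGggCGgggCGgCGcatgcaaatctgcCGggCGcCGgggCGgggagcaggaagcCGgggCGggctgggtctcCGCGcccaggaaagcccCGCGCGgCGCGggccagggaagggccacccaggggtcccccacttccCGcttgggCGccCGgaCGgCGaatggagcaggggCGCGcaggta
PIM1: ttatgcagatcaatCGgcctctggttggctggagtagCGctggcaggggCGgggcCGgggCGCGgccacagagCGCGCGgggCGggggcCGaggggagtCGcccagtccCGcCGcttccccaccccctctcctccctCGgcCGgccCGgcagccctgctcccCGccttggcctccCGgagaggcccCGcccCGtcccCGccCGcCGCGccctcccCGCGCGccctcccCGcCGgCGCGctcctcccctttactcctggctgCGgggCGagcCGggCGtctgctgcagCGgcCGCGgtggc
Both windows of 300 bases were rich in CpG, with 42 dinucleotides and 79.3% GC for IL4R, and 39 dinucleotides and 79.7% GC for PIM1. The median over 35116 RefSeq promoters was 14 dinucleotides and 58.7% GC. RefSeq entries were found for 9 of the 10 members, 15 windows in all. None of the 15 windows, searched on both strands, held AATTTG, a binding motif given for FOXP2 that 10.7% of all promoters carry. The FOXP2 motif ATTTGT, which shares letters with it, occurred in 11.9% of all promoters and the forkhead motif TGTTTAC in 3.42%, and neither was found in the members' windows. The same held for the STAT motif TTCNNNGAA (7.66% of all promoters) and its longer form TTCNNNNGAA of the STAT6 type (6.44%). The absence of a match says only that these letters are not in these windows.

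IL4R, the chain that binds interleukin-4, had 2.30 and 3.18 BPKM in hsaFOXP2 libraries A and B. It had 5.64 and 4.83 BPKM with ptrFOXP2, 5.49 and 5.17 BPKM with mmuFOXP2, and 5.65 and 5.13 BPKM with cjaFOXP2. The empty vector gave 4.37 and 5.81 BPKM. Both hsaFOXP2 libraries were therefore below all 8 others, and the higher of them reached 3.18 BPKM against 4.37 BPKM in the lowest of the rest. The mean of 2.74 ± 0.62 BPKM (SD, n = 2) with hsaFOXP2 was 0.515 times the mean of 5.32 ± 0.33 BPKM (SD, n = 6) with non-human FOXP2. Leaving out hsaFOXP2 replicate B or A moved this ratio to 0.432 or 0.597. All 5 IL4R transcripts showed the same picture, with both hsaFOXP2 libraries lowest and ratios of 0.494 to 0.569. In increasing order the condition means were 2.74 BPKM with hsaFOXP2, 5.09 with pcDNA3, 5.23 with ptrFOXP2, 5.33 with mmuFOXP2 and 5.39 with cjaFOXP2. From pcDNA3 upwards, neighbours in this order overlapped, and the span of the pcDNA3 libraries enclosed all 6 libraries with non-human FOXP2. Fewer cells with the receptor and less RNA per cell cannot be told apart in bulk samples.

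**Figure D1:**
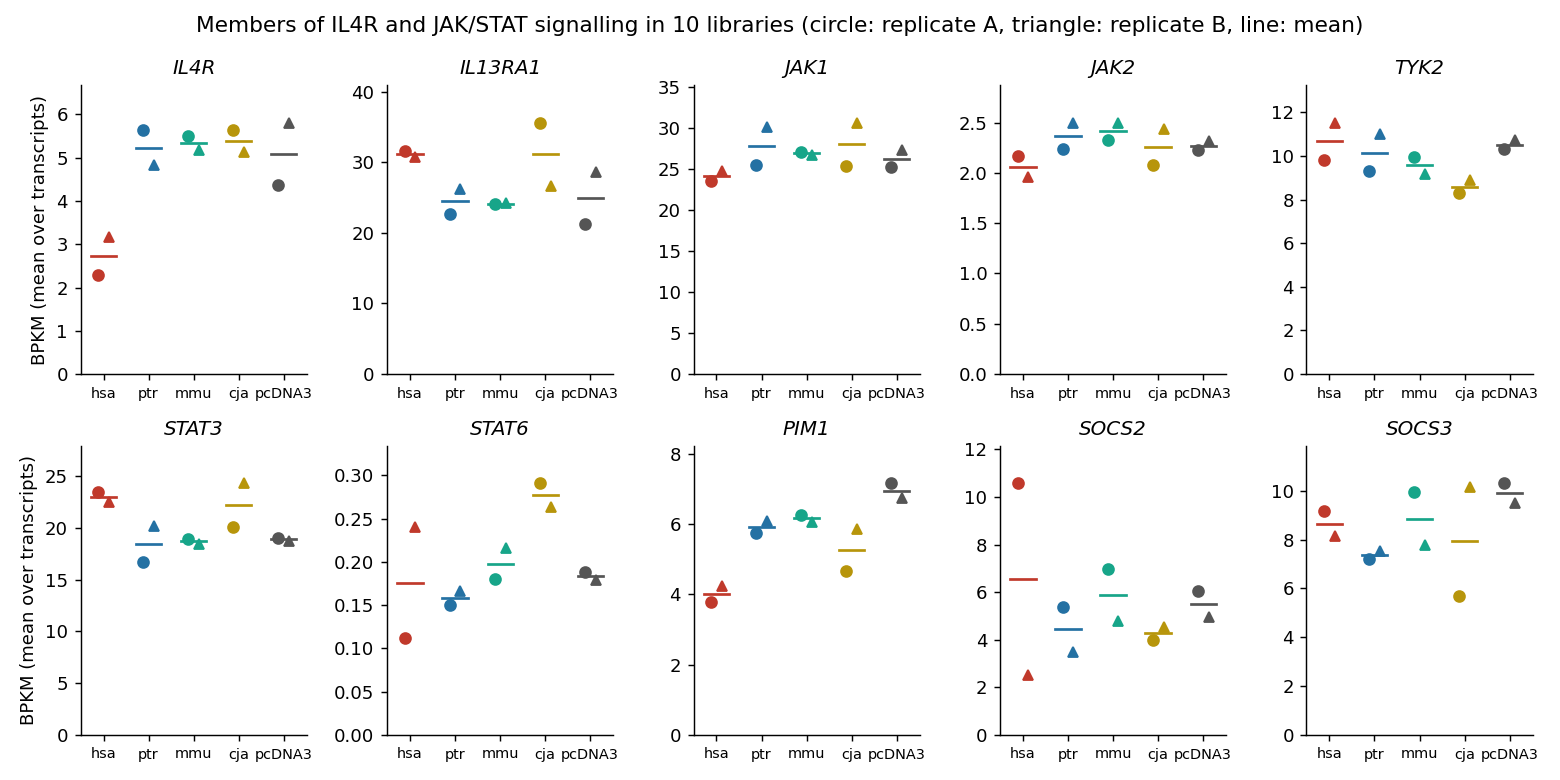
BPKM of the 10 members (mean over the transcripts of a gene, linear axis from 0) in each library, by condition; circles are replicate A, triangles replicate B and lines the mean of both. IL4R and PIM1 are lowest in both hsaFOXP2 libraries, whereas SOCS2 has its highest (10.6 BPKM) and its lowest (2.51 BPKM) value there.

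IL13RA1, the partner chain of IL4R, was far more abundant per length. It measured 31.6 and 30.8 BPKM with hsaFOXP2, 22.7 and 26.2 BPKM with ptrFOXP2, 24.1 and 24.2 BPKM with mmuFOXP2, 35.6 and 26.6 BPKM with cjaFOXP2, and 21.3 and 28.6 BPKM with pcDNA3. The hsaFOXP2 libraries were above 7 of the 8 others and below cjaFOXP2 replicate A. The ratio of the means of hsaFOXP2 and non-human FOXP2 was 1.17, and 1.26 without cjaFOXP2 replicate A. There were thus 13.7 and 9.70 units of IL13RA1 per unit of IL4R in the hsaFOXP2 libraries, against 4.03 to 6.30 in the other 8. This ratio of BPKM values rests on the same low IL4R values that chose the gene and is a description.

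The remaining parts of the interleukin-4 and interleukin-13 system were unequally present in these cells. IL13RA2, a decoy chain that binds interleukin-13, was the most abundant of the 22 other receptor chains considered, with a mean of 245 BPKM and single values of 149 to 380 BPKM. IL2RG, the gamma chain of the blood cell type receptor, was listed at 0 in every library but cjaFOXP2 replicate A, where it had 0.022 BPKM. The ligand IL4 did not exceed 0.053 BPKM and IL13 did not exceed 0.032 BPKM. The interleukin-13 binding chains were therefore the prominent ones in BPKM, with RNA for either ligand at or near 0.

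**Figure D2:**
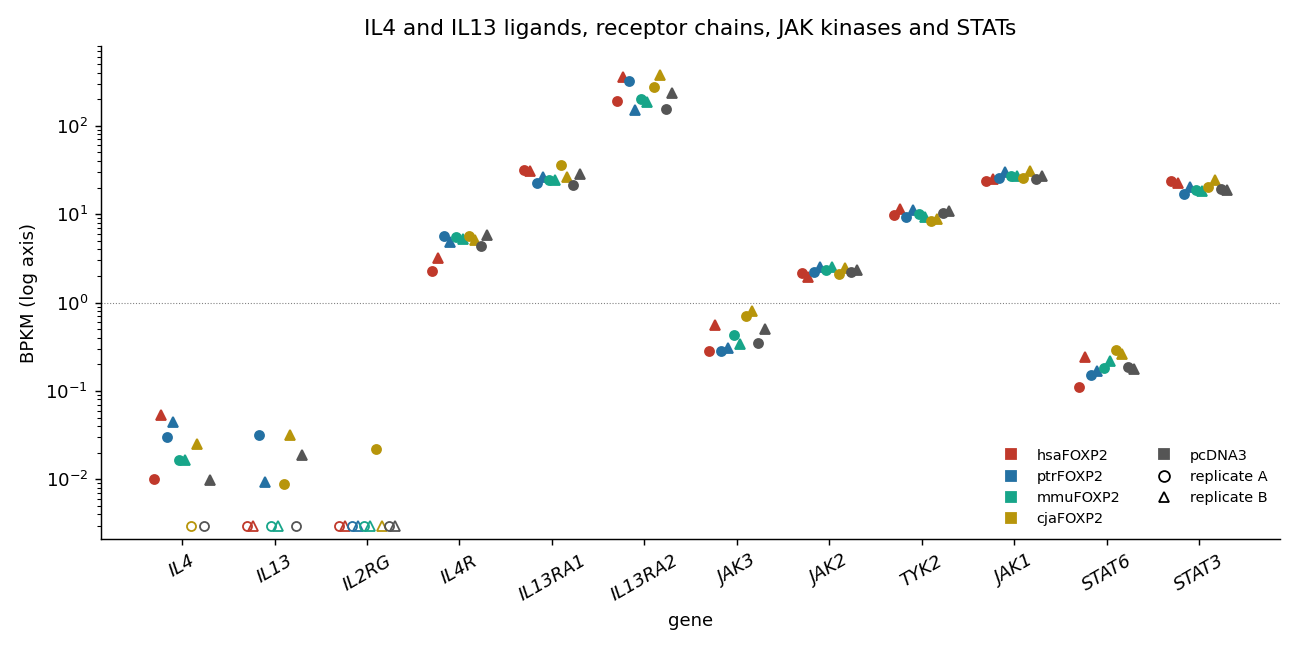
BPKM on a log axis of the ligands IL4 and IL13, their receptor chains, the JAK kinases, STAT6 and STAT3 in the 10 libraries, by condition (colour) and replicate (circle A, triangle B); open symbols at the bottom are values under the plotted range, mostly listed at 0. IL13RA2 is highest (149 to 380 BPKM), and STAT6 and JAK3 lie below 1 BPKM throughout.

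Among the kinases, JAK1, which serves both receptor types as well as the interleukin-6 and interferon receptors, was the most abundant, with a mean of 26.6 BPKM. It reached 23.5 and 24.7 BPKM with hsaFOXP2, 25.4 and 30.1 BPKM with ptrFOXP2, 27.1 and 26.7 BPKM with mmuFOXP2, 25.4 and 30.6 BPKM with cjaFOXP2, and 25.3 and 27.3 BPKM with pcDNA3. Both hsaFOXP2 libraries were below all others, by a margin of 24.7 against 25.3 BPKM, and the ratio to non-human FOXP2 was 0.875. Of 3 JAK1 transcripts, 2 had both hsaFOXP2 libraries lowest.

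JAK2, a kinase of the growth hormone, erythropoietin and IL13RA1 type of receptor, was at 2.16 and 1.96 BPKM in the hsaFOXP2 libraries, while the 8 other libraries ranged from 2.08 to 2.50 BPKM. The groups overlapped through cjaFOXP2 replicate A, and the ratio to non-human FOXP2 was 0.879. TYK2, a kinase that also serves the type I interferon receptor, had 9.82 and 11.5 BPKM in the hsaFOXP2 libraries, while the others ranged from 8.30 to 11.01 BPKM. Its lowest values were those of cjaFOXP2, 8.30 and 8.89 BPKM. JAK1 and JAK2 varied little between libraries, with coefficients of variation of 8.56% and 7.80%, against a median of 15.7% over the 13412 genes whose mean was 1 BPKM or more.

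STAT6, the transcription factor that IL4R mainly activates, was barely present as RNA. It had 0.11 and 0.24 BPKM with hsaFOXP2, 0.15 and 0.17 BPKM with ptrFOXP2, 0.18 and 0.22 BPKM with mmuFOXP2, 0.29 and 0.26 BPKM with cjaFOXP2, and 0.19 and 0.18 BPKM with pcDNA3. The hsaFOXP2 libraries enclosed 6 of the 8 others, and the ratio to non-human FOXP2 of 0.833 turned to 1.14 without hsaFOXP2 replicate A. All 7 STAT6 transcripts were low, with means of 0.18 to 0.27 BPKM.

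STAT3 was 69.2 to 210 times more abundant in BPKM than STAT6 within a library. It had 23.5 and 22.5 BPKM with hsaFOXP2, 16.7 and 20.2 BPKM with ptrFOXP2, 19.0 and 18.5 BPKM with mmuFOXP2, 20.1 and 24.3 BPKM with cjaFOXP2, and 19.1 and 18.8 BPKM with pcDNA3. Both hsaFOXP2 libraries were above every other library except cjaFOXP2 replicate B, and the ratio to non-human FOXP2 was 1.16. STAT2, which serves the type I interferon receptor, had a mean of 17.4 BPKM, and STAT5B, which serves growth hormone, had 5.04 BPKM.

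PIM1 had 3.79 and 4.23 BPKM with hsaFOXP2. It had 5.76 and 6.09 BPKM with ptrFOXP2, 6.26 and 6.07 BPKM with mmuFOXP2, 4.68 and 5.86 BPKM with cjaFOXP2, and 7.16 and 6.75 BPKM with pcDNA3. The levels thus fell into an order without overlap, hsaFOXP2 below non-human FOXP2 and non-human FOXP2 below the empty vector. The means were 4.01 ± 0.31 BPKM (SD, n = 2), 5.79 ± 0.57 BPKM (SD, n = 6) and 6.96 ± 0.29 BPKM (SD, n = 2). The ratio of hsaFOXP2 to non-human FOXP2 was 0.693, with 0.719 and 0.665 for its 2 transcripts. Of the related kinases, chosen for mention after their values had been seen, PIM2 had 4.26 and 4.77 BPKM in the hsaFOXP2 libraries, inside the range of 3.92 to 5.27 BPKM of the others. PIM3 had 10.7 and 7.87 BPKM there, on either side of the range of 8.13 to 10.4 BPKM of the others.

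SOCS2 and SOCS3, feedback inhibitors, had no common pattern. SOCS2, known for restraining growth hormone signalling, had 10.6 BPKM in hsaFOXP2 replicate A and 2.51 BPKM in replicate B, the highest and the lowest of all 10 values. The other conditions lay between, with 5.38 and 3.50 BPKM for ptrFOXP2, 6.96 and 4.80 BPKM for mmuFOXP2, 4.00 and 4.52 BPKM for cjaFOXP2, and 6.03 and 4.95 BPKM for pcDNA3. The ratio of hsaFOXP2 to non-human FOXP2 was 1.34 over both replicates, 0.515 without replicate A and 2.17 without replicate B, so that its direction rested on a single library. The 4 SOCS2 transcripts followed this, with 6.67 to 12.5 BPKM in hsaFOXP2 replicate A and 1.62 to 2.95 BPKM in replicate B. Its coefficient of variation of 41.9% was the highest of the members, at the 95.0 percentile of these 13412 genes.

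SOCS3, an inhibitor of JAK kinases bound to IL6ST, had 9.18 and 8.13 BPKM in the hsaFOXP2 libraries, while the others ranged from 5.70 to 10.3 BPKM. The widest pair was that of cjaFOXP2, with 5.70 BPKM in replicate A and 10.2 BPKM in replicate B. The hsaFOXP2 libraries lay inside the range of the other conditions, and the ratio to non-human FOXP2 was 1.08.

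**Figure D3:**
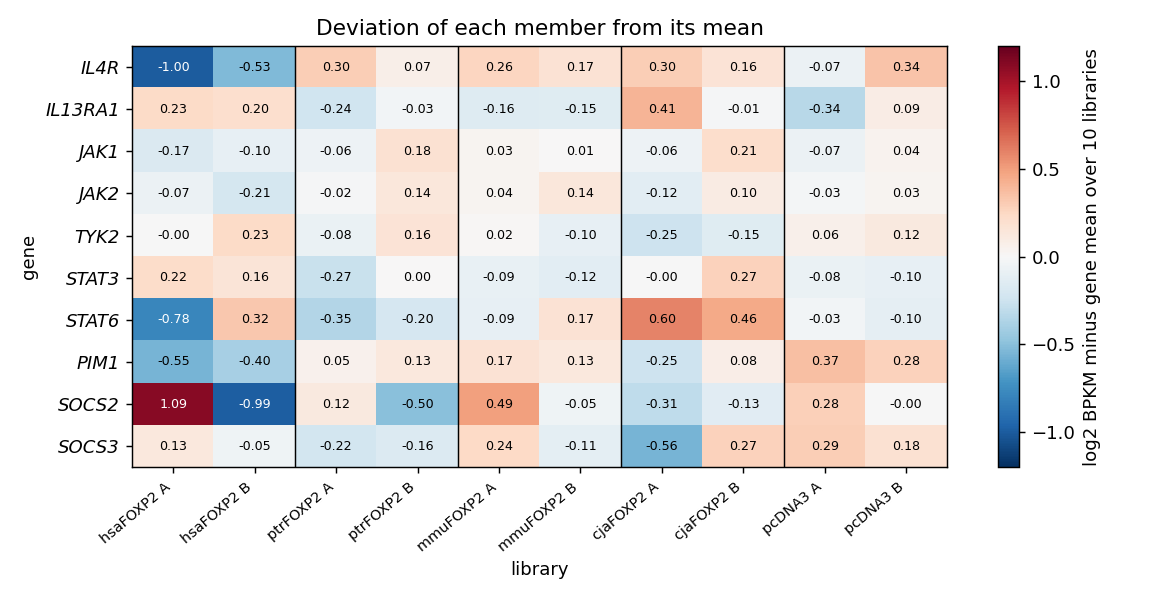
Deviation of log2 BPKM of each member (rows) from its mean over the 10 libraries (columns), in log2 units, red above and blue below. IL4R and PIM1 are blue in both hsaFOXP2 columns (-0.53 for IL4R in replicate B, -0.55 and -0.40 for PIM1), and SOCS2 has opposite signs there (1.09 and -0.99).

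By the criterion of the study, 3 of the 10 members had both hsaFOXP2 libraries below all others, and none had both above. Over all 23348 genes above 0 BPKM in at least 1 library, 1.61% lay below and 2.23% above. The study screened these same libraries by this criterion, so nothing is read from the count of 3 members. In limma's fit of hsaFOXP2 against non-human FOXP2, 2 of 21937 genes (0.00912%) passed an adjusted p of 0.05, and no test of the members is drawn from that contrast.

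The members were not chosen by the contrast between cells with non-human FOXP2 and cells with the empty vector. The study's criterion did set hsaFOXP2 against both groups, so their values entered the screen that IL4R, PIM1 and JAK1 met. PIM1 was lower with non-human FOXP2, at a mean ratio of 0.832, with a log2 fold change of -0.27 ± 0.12 (SE), but it did not pass (adjusted p = 1, unadjusted p = 0.0535, limma). It was the only member with both pcDNA3 libraries above the 6 non-human ones, against 3.37% of 23136 genes, and no member had both below, against 0.968%. SOCS3 had a log2 fold change of -0.32 ± 0.21 and IL4R one of 0.07 ± 0.16 (SE), both with adjusted p = 1 in limma. None of the 10 members passed, against 1 of 22238 genes (0.0045%), and none had an unadjusted p under 0.05, against 3.46% of genes. The members' median log2 fold change was 0.05, with -0.03 over all genes. The direction for IL4R turned with the pcDNA3 replicates, to -0.13 without replicate A and 0.27 without replicate B.

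Of the single cDNAs, cjaFOXP2 gave the lowest p for a member. PIM1 with 4.68 and 5.86 BPKM was below the 7.16 and 6.75 BPKM of pcDNA3, a log2 fold change of -0.40 ± 0.14 (SE) with an adjusted p of 0.387 in limma (unadjusted p = 0.0242). Without cjaFOXP2 replicate A, the low one, the log2 fold change was -0.24, and without replicate B it was -0.56. PIM1 was 1 of 10 members with an unadjusted p under 0.05, against 11% of all genes in that comparison. TYK2 stood at -0.29 ± 0.14 (SE) and SOCS3 at -0.37 ± 0.26 (SE), the latter with 5.70 and 10.2 BPKM in its cjaFOXP2 replicates. The direction for SOCS3 turned to 0.04 without cjaFOXP2 replicate A, and it was -0.79 without replicate B. No member passed for ptrFOXP2, mmuFOXP2 or cjaFOXP2 against pcDNA3, where 2 (0.00899%), 1 (0.0045%) and 2 (0.00899%) of 22238 genes did. With the replicate letter as a block, 0 genes passed in each of these 3 comparisons.

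The F test over the 4 conditions without hsaFOXP2 gave the same outcome. No member passed it, against 2 of 22238 genes (0.00899%), and none had an unadjusted p under 0.05, against 9.34% of genes. With the replicate block 0 genes passed. The smallest adjusted p among the members was 0.666, for PIM1, and IL4R had an unadjusted p of 0.968 (adjusted p = 1, limma).

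The round of transfection was compared next, replicate B against replicate A within conditions. No gene passed in limma (0 of 22238, 0.0%), though 2442 genes (11%) had an unadjusted p under 0.05, and none of the members was among these. SOCS2 came closest, lower in B by -0.66 ± 0.29 (SE) on the log2 scale (unadjusted p = 0.0624, adjusted p = 0.462), lower in 4 of 5 conditions and higher with cjaFOXP2. Without hsaFOXP2 replicate A, whose pair then gives no difference, the log2 value for SOCS2 was -0.31, and over all alternatives it ranged from -0.86 to -0.31. IL4R was higher in B with hsaFOXP2 and pcDNA3 and lower with the other 3 cDNAs. The other 9 members had log2 fold changes of 0.04 to 0.16 for B against A and did not pass. Leaving out 1 library turned the direction for IL4R (down to -0.01), IL13RA1 (down to -0.06) and SOCS3 (down to -0.14).

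**Figure D4:**
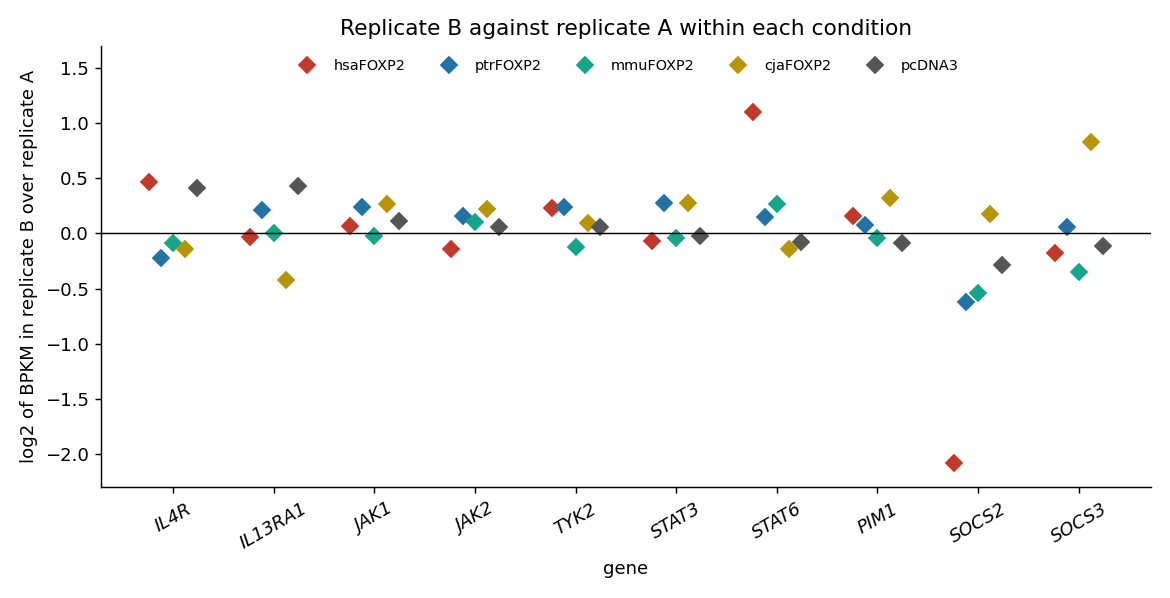
log2 of BPKM in replicate B over replicate A for each member within each of the 5 conditions (diamonds, coloured by condition); the line at 0 marks equal levels. SOCS2 lies lowest with hsaFOXP2 (2.51 BPKM in B, 10.6 BPKM in A), and SOCS3 and STAT6 show the widest upward pairs, with cjaFOXP2 and hsaFOXP2.

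The wider pathway was described with 80 further genes in 7 roles, 77 of which could be tested. None passed between hsaFOXP2 and non-human FOXP2 (limma), and 6 had an unadjusted p under 0.05, 4 higher and 2 lower, that is 6 of 77 genes against 4.44% of all genes. Their median log2 fold change was -0.02, with 0.01 over all genes. None passed in the other 6 comparisons either.

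Of the receptor chains, 21 of 22 were tested and 2 had an unadjusted p under 0.05. CNTFR, the binding chain for ciliary neurotrophic factor, was chosen for mention after its values had been seen. It had 7.79 and 2.42 BPKM with hsaFOXP2, and 5.41 and 2.11 BPKM with pcDNA3. All of these were above the libraries with ptrFOXP2, mmuFOXP2 or cjaFOXP2, which ranged from 0.39 to 1.28 BPKM. Its log2 fold change between hsaFOXP2 and non-human FOXP2 was 2.51 ± 0.49 (SE), with an adjusted p of 0.461 in limma (unadjusted p = 0.000778). The other of the 2 chains, IL15RA, also named after its values were seen, had 0.096 and 0.071 BPKM with hsaFOXP2. With non-human FOXP2 it ranged from 0.13 to 0.36 BPKM. The log2 fold change of IL15RA was -0.75 ± 0.27 (SE), and it did not pass (unadjusted p = 0.0247, limma). OSMR, the oncostatin M receptor, had 18.2 and 42.4 BPKM with hsaFOXP2 around a mean of 36.6 BPKM, and IL6ST had 20.5 and 36.2 BPKM around 25.6 BPKM. Both receptors of the interleukin-6 family therefore differed more between the hsaFOXP2 replicates than STAT3 did.

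The ligands LIF, CLCF1 and CTF1 of the interleukin-6 family had means of 4.86, 4.82 and 3.12 BPKM, while IL6 was listed at 0 in every library. CTF1 was at 2.42 and 2.73 BPKM with hsaFOXP2, against 2.78 to 3.69 BPKM with non-human FOXP2 (log2 fold change -0.32 ± 0.14 SE, adjusted p = 1 in limma). Of the inhibitors, PIAS3, which binds STAT3, SOCS5 and the phosphatase PTPN11 led with 20.5, 15.9 and 15.3 BPKM. None of 16 inhibitors passed in limma, and the 1 with an unadjusted p under 0.05 was CISH, a STAT5 target also named after its values were seen, at 2.27 and 1.12 BPKM in the hsaFOXP2 libraries, where ptrFOXP2, mmuFOXP2 and cjaFOXP2 gave 0.46 to 1.01 BPKM. Its log2 fold change was 1.02 ± 0.32 (SE), with an adjusted p of 0.906 in limma.

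The adaptors SHC1, GRB2 and SH2B1 had means of 97.9, 38.3 and 15.3 BPKM, and 0 of 6 adaptors had an unadjusted p under 0.05 between hsaFOXP2 and non-human FOXP2. The same held for 0 of 6 further kinases and STATs and 0 of 10 PIM kinases and STAT targets, of which 7 had a negative fold change. Among the latter MCL1, a survival factor, led with 57.5 BPKM, before the cyclin CCND1 with 35.4 BPKM and JUNB with 16.0 BPKM. Of 12 interferon-induced genes, 9 had a positive fold change, with a median of 0.28 on the log2 scale against 0.01 over all genes. None of them passed in limma. The 2 with an unadjusted p under 0.05, named after their values were seen, were IRF7, with 4.58 and 4.17 BPKM in the hsaFOXP2 libraries and at most 3.66 BPKM with non-human FOXP2, and IFIT1, with 2.66 and 2.18 BPKM against at most 2.37 BPKM. IFI6, IRF9 and IFITM1, the most abundant of them, had 24.3 and 40.2, 9.87 and 13.1, and 2.47 and 10.4 BPKM in hsaFOXP2 replicates A and B, and all 3 were higher in B. Every other interferon-induced gene on this list, IRF7 and IFIT1 included, was lower in hsaFOXP2 replicate B than in A. Against pcDNA3, 9 of the 12 were also positive with non-human FOXP2 (median 0.12) and 9 with cjaFOXP2 (median 0.37). With mmuFOXP2 7 were positive, and with ptrFOXP2 4.

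The genes whose pattern over the 10 libraries was most like that of IL4R were TRIM22, IGSF10 and SERTAD4, with Pearson r of 0.907, 0.907 and 0.896 on log2(BPKM + 0.1) among 13412 genes. These points share their libraries, so r is a description only. For TRIM22, an interferon-induced protein, Spearman's rho was 0.467, and its lowest values were the 0.76 and 2.43 BPKM of hsaFOXP2. PIM1 was most like KLF5 (r = 0.961), FAM176A (r = 0.920) and PPP2R3A (r = 0.919), and SOCS3 most like BAP1 (r = 0.946), RAD9A (r = 0.942) and ATXN7L3B (r = 0.914). Among the 9 members with a mean of at least 1 BPKM, thus without STAT6, the highest r were those of JAK1 with JAK2 (r = 0.754) and IL4R with PIM1 (r = 0.732), and the lowest was that of IL13RA1 with PIM1 (r = -0.748). IL4R, PIM1 and JAK1 met the study's criterion by low values in the same 2 libraries, which is part of any r between them.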

How the data were processed

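RNA of 10 libraries was measured, 2 for each of 5 conditions, grouped by the transfection state and replicate letter in the labels. The authors aligned paired reads to hg19 with STAR. They deposited BPKM, an RPKM that counts bases in place of reads, for transcripts of the UCSC annotation. The sources used here give neither the version of STAR nor whether strand was counted, and overlapping genes may share signal. The table holds no read counts, so absolute depth is unknown and no counting interval can be given. From it the mean over the transcripts of each symbol was computed, and 2 transcripts of unknown symbol were left out.

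The tests used limma (version 3.58.1, R 4.3.3), fitted to log2(BPKM + 0.1) with trend and robust settings, for genes above 0 BPKM in at least 2 libraries. Fold changes of low genes are understated on this scale. P-values were adjusted over all genes by Benjamini-Hochberg, with a threshold of 0.05. hsaFOXP2 was set against the 6 non-human libraries as 1 group, and other contrasts came from a fit of 5 conditions over 10 libraries. The fits were tested on simulated data. Python 3.11.15, numpy 2.4.6, pandas 2.3.3 and matplotlib 3.10.9 served for the other steps.

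The members and lists were chosen with earlier results of these data known. Named genes are all members, FOXP2, pathway genes that pass, the 3 most abundant of each role, the interleukin-4 and interleukin-13 chains and ligands, and the 3 genes most like IL4R, PIM1 and SOCS3; others are marked, and the result of 1 gene that this rule takes in is not reported here. Since the labels tie a letter to a round of transfection, the letters pair the libraries. Log2 ratios of B to A correlated between conditions at -0.334 to 0.506, above 0.1 in 6 of 10 pairs, over 13412 genes. Alternatives were the pseudocount, a filter, median-ratio scaling, the highest transcript, the replicate block and leaving out each library.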

Additional observations from a re-analysis of the deposited data

Results flagged for a closer look

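Among the 6 libraries with non-human FOXP2, cjaFOXP2 replicate A stood apart from the other 5 in 2 of 10 members. IL13RA1 had 35.6 BPKM there and 22.7 to 26.6 BPKM in the others. PIM1 had 4.68 BPKM there and 5.76 to 6.26 BPKM in the others. Chance alone sets apart a sample in about 1 in 20 groups of independent values. The groups here pool different cDNAs and share their libraries, so that rate is only a rough guide.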

How the results depend on the processing

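No member passed the adjusted threshold in the 102 alternative fits of the 6 comparisons in which members were tested, which leave out hsaFOXP2 against non-human FOXP2. No other pathway gene passed in the 117 alternative fits of all 7 comparisons. Counts over all genes were small and moved. Between hsaFOXP2 and non-human FOXP2 the 2 genes became 1 with a pseudocount of 1 and 1 with a mean of at least 1 BPKM. With that filter 0 passed for non-human FOXP2, ptrFOXP2, mmuFOXP2 and cjaFOXP2 against pcDNA3 and in the F test, and 1 between replicates. For ptrFOXP2, a pseudocount of 1 left 1 gene. A pseudocount of 0.01 left 0 for ptrFOXP2, for mmuFOXP2 and in the F test. The highest transcript gave 2 genes for mmuFOXP2. With a pseudocount of 1, 3 genes passed for cjaFOXP2, and the F test gave 3 genes with the highest transcript and 3 without the filter. The replicate block left 0 genes for ptrFOXP2, mmuFOXP2, cjaFOXP2 and the F test, 2 between hsaFOXP2 and non-human FOXP2, and 1 between non-human FOXP2 and pcDNA3. Without the condition term, 0 passed between replicates. The cause of these moves was not tested.

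Leaving out 1 library gave 1 to 40 genes between hsaFOXP2 and non-human FOXP2, with 40 without hsaFOXP2 replicate B and 8 without replicate A. The range was 1 to 8 for non-human FOXP2 against pcDNA3, with 8 without pcDNA3 replicate B. It was 0 to 3 for ptrFOXP2, 0 to 2 for mmuFOXP2, 0 to 3 for cjaFOXP2, 0 to 5 for the F test, with 5 without ptrFOXP2 replicate A, and 0 to 1 between replicates. Of 320 member ratios under an alternative, 7 moved by more than the spread between replicates and 313 did not. A ratio can stay within that spread and still turn in direction. That of PIM1 between replicates B and A did so, at 0.972 to 1.13 on leaving out 1 library. It is a ratio of plain means, so leaving out 1 library keeps its condition on 1 side only. In the fit within conditions PIM1 did not turn, with log2 fold changes of 0.03 to 0.13 over all alternatives.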
